A study of Mus musculus with 17 samples.

Results

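The genes described here encode the constitutive proteasome: all protein-coding genes whose mouse symbol begins with Psma, Psmb, Psmc, Psmd or Psme, other than Psmb8, Psmb9 and Psmb10, with a mean raw count of 10 or more over all 17 samples. Of 43 matching genes, 41 met the count minimum, out of 17437 protein-coding genes in the count table. Psma8, at a mean count of 9.24, fell just below it and Psmb11, at 0.235, far below, whereas Psmc3ip, at 50.8, and Psme2b, at 56.4, were the lowest genes retained. All 41 were tested in every comparison. Gene expression was measured in cDC1s and cDC2s, the conventional dendritic cells (cDCs) that prime mainly CD8+ and CD4+ T cells, respectively, from spleens of female C57BL/6JRj mice implanted with B16 tumor cells that secrete FLT3 ligand. The cDCs were kept for 6 h with medium of TC-1 cells, a C57BL/6 lung epithelial tumor line, and then sorted by flow cytometry. The medium came from WT TC-1 cells, from apoptotic TC-1-iBimS cells or from necroptotic TC-1-iRIPK3 cells, which overexpress BimS or RIPK3 after addition of cumate. All 3 lines received cumate, GM-CSF was present in every culture, and the medium was used with the dead cells and debris in it. The cDCs were not sorted by uptake of debris, so a sample can mix cells with and without uptake. The paper found uptake lower in cDC2s than in cDC1s, and lower for necroptotic than for apoptotic debris. The part of uptake in the results was not tested. There were 3 samples per group, except for cDC2s with RIPK3 medium, with 2. The iBimS and iRIPK3 lines are each 1 clone, so clone and mode of death cannot be told apart. Both lines also carry inserted vectors that WT TC-1 cells lack. Against WT medium, engineering and cloning of the lines therefore cannot be told apart from death. Spleens were pooled, so p-values measure only the spread between these samples. This spread may be technical, since the labels do not say that replicates came from separate cultures.

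The proteasome degrades proteins that carry ubiquitin chains and supplies peptides for presentation on MHC class I, a main task of cDC1s. Its 20S core stacks outer α rings (Psma genes) on inner β rings (Psmb genes), of which Psmb5, Psmb6 and Psmb7 hold the proteolytic sites. The 19S regulatory particle caps the core: its base, with the ATPases (Psmc genes), unfolds substrates, and its lid (most Psmd genes) removes ubiquitin. The Psme genes encode other caps, such as the PA28 subunits Psme1 and Psme2. In immune cells, the interferon-inducible subunits Psmb8, Psmb9 and Psmb10 can replace Psmb5, Psmb6 and Psmb7.

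By role, the 41 genes comprised 7 α subunits, 4 non-catalytic and 3 catalytic β subunits, 6 ATPases, 3 other base subunits (Psmd1, Psmd2 and Psmd4), 8 lid subunits, 3 assembly chaperones of the 19S base (Psmd5, Psmd9 and Psmd10) and 5 activators. The remaining 2, Psmc3ip and Psme3ip1, share the symbol but encode other proteins: Psmc3ip acts in meiotic recombination and Psme3ip1 binds Psme3. Together, the 41 genes took 0.594% to 0.843% of the counts of a sample. This share was 0.594% to 0.621% in cDC1s with WT medium, 0.645% to 0.691% with BimS medium and 0.668% to 0.736% with RIPK3 medium. In cDC2s it was 0.697% to 0.817%, 0.746% to 0.843% and 0.778% to 0.807%, so the media did not overlap between WT and debris in cDC1s, but did in cDC2s.

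Total counts ranged from 16095159 to 21645289 per sample. The sorted cells matched their labels by markers: the 9 cDC1 genes summed to 1412–1738 CPM (counts scaled to library size) in the cDC1 samples and 99.0–132 in the cDC2 samples, and the 8 cDC2 genes to 2.63–4.13 and 287–375, respectively. Markers of T and NK cells, B cells, macrophages, neutrophils and erythroid cells summed to at most 11.1 CPM in any sample, and those of plasmacytoid dendritic cells to 13.0–20.6 CPM in cDC1s and 2.33–3.96 CPM in cDC2s. Some of these low sums moved with the medium: the macrophage sum in cDC1s was 2.24–5.25 CPM with WT, 0.795–1.60 with BimS and 2.07–3.57 with RIPK3 medium, and the neutrophil sum in cDC2s was at least 0.860 CPM with WT and 0.0608–0.356 and 0.117–0.711 CPM with BimS and RIPK3 medium. Their part in the results was not tested. Of the list for adherent tumor cells, 11 genes were in the table. Its sum was 8.14–11.2 CPM in cDC1s, and in cDC2s it was 55.6–60.6 with WT, 140–169 with BimS and 142–152 CPM with RIPK3 medium. The increase in cDC2s came from Thbs1, with 46.8–52.2 CPM in WT and 132–162 CPM in debris samples, whereas the keratin genes Krt8 and Krt7 stayed at or near 0. In bulk RNA, fewer cells of a type and less RNA per cell cannot be told apart. The libraries of cDC2s with replicate number 3 stood apart: over the 41 genes, the median log2 CPM of WT replicate 3 was 0.17 above the WT mean, with 37 genes above it, against -0.09 and -0.06 in replicates 1 and 2.

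**Figure D1:**
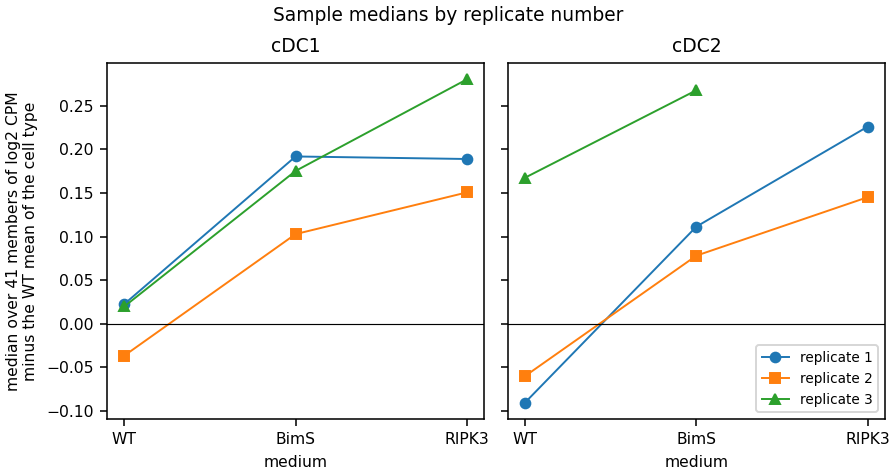
Median over the 41 proteasome genes of log2 CPM minus the mean of the WT samples of the same cell type (y axis) by medium (x axis), with a line for each replicate number. In both cell types the line of each number lies higher with BimS and RIPK3 medium than with WT medium, and cDC2 replicate 3, which has no RIPK3 sample, starts at 0.17.

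To ask whether contact with dying tumor cells changed expression of the proteasome in cDC1s, BimS and RIPK3 medium were each compared to WT medium. Both comparisons use the same WT samples. Proteasome genes rose with both kinds of debris and none fell. With BimS medium, 20 of 41 genes were higher by edgeR's quasi-likelihood test at an adjusted p below 0.05, against 7.31% of all 19513 genes tested, and 0 were lower, against 5.89%. With RIPK3 medium, 26 of 41 were higher, against 8.34%, and 0 were lower, against 8.19%. With the replicate number as a block 24 and 30 genes were higher, against 9.36% and 10.3% of all. The counts depended on the scaling: limma called 13 and 17 on the deposited normalized values, against 14.6% and 19.5% of all genes in either direction, and 7 and 7 on unscaled log2(count + 1), against 7.74% and 14.1%. Among the 7882 more highly expressed genes, with an average log2 CPM of at least 3, 14.3% and 16.2% were higher, and 18.4% and 20.1% with the block. The median log2 fold change of the 41 genes was 0.16 and 0.21, whereas the median of all genes tested was 0.00 and -0.01. Within replicate numbers, 39, 32 and 32 of the 41 genes were higher with BimS than with WT medium, and 32, 35 and 40 with RIPK3 medium, where 47.6% to 52.5% of the more highly expressed genes were higher.

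The genes that rose came from all parts of the 26S particle. Among the α subunits, 6 of 7 rose with BimS and 7 of 7 with RIPK3 medium, with median log2 fold changes of 0.20 and 0.26. Of the 6 ATPases, 4 and 5 rose, of the 3 other base subunits 2 and 3, and of the 8 lid subunits 4 and 6. The β rings contributed fewer calls: of the 4 non-catalytic subunits 1 (Psmb4) and 2 rose, and of the 3 catalytic subunits 1 and 1, in both cases Psmb5. Among the 3 assembly chaperones only Psmd5 rose, and among the 5 activators only Psme4, whereas Psmd9, Psmd10, Psme1, Psme2, Psme2b and Psme3 did not pass the test, and nor did Psmc3ip and Psme3ip1.

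**Figure D2:**
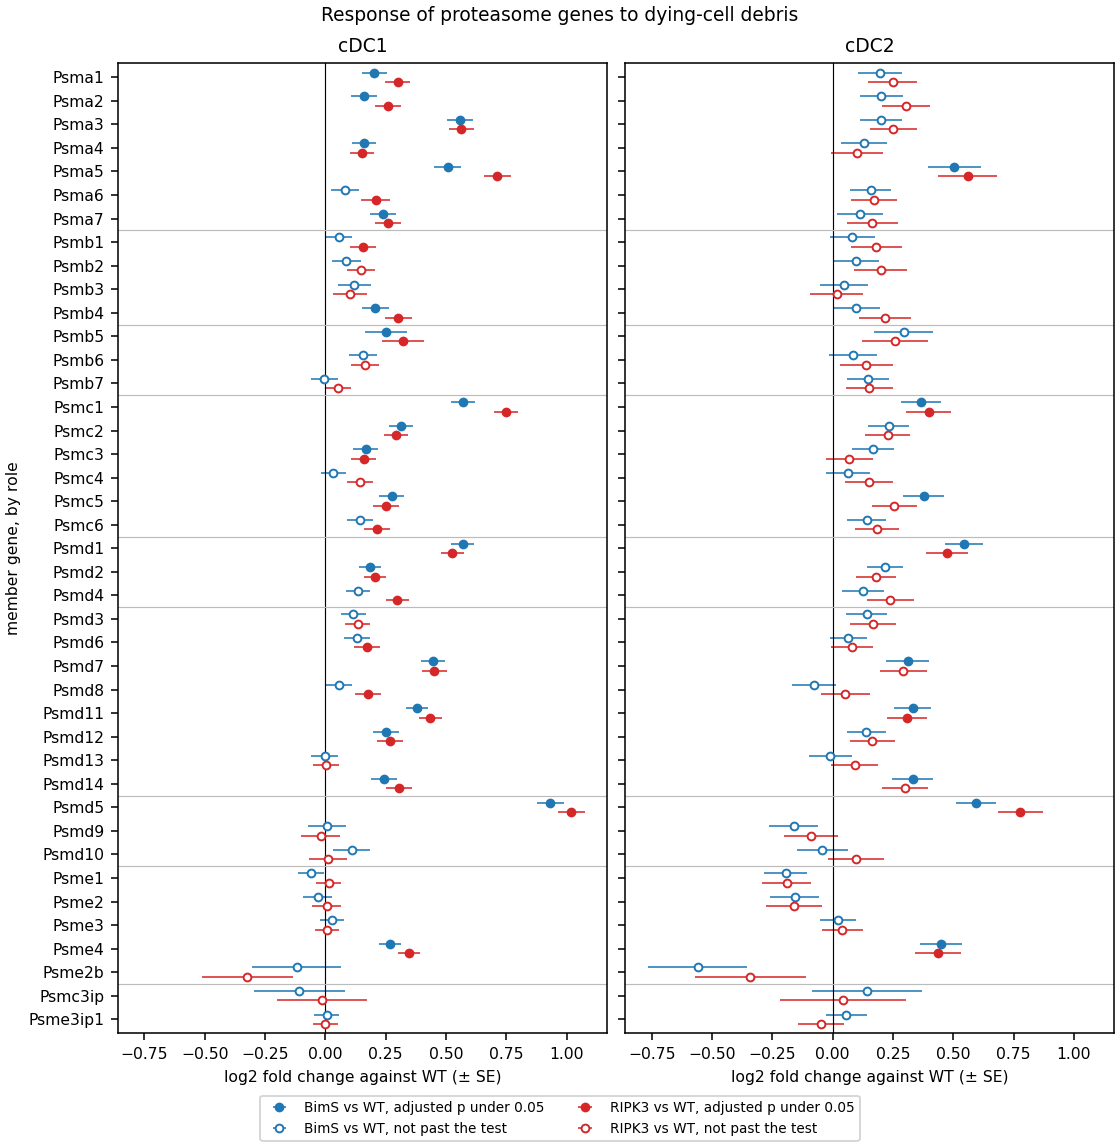
Log2 fold change against WT medium with its standard error (x axis) for each of the 41 genes (y axis, grouped by role), in cDC1s and cDC2s; filled points passed the test. In cDC1s all 20 and 26 filled points lie above 0, led by Psmd5 at 0.93 and 1.02.

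Psmd5, a chaperone that holds part of the 19S base during assembly, had the largest rise. Its level in cDC1s was 57.9, 54.1 and 57.1 CPM with WT medium, 114, 104 and 105 CPM with BimS medium and 119.8, 113 and 109.6 CPM with RIPK3 medium. The debris samples were thus about double the WT samples, with no overlap. The log2 fold changes were 0.93 ± 0.06 (SE, edgeR adjusted p = 2.03e-15) and 1.02 ± 0.06 (edgeR adjusted p = 1.39e-16). Of the 41 genes, 18 overlap genes on the opposite strand, among them Psmd5 (Gm57465 and Cutal), Psmd1, Psma3, Psmb4, Psmb7, Psme1, Psme2 and Psme4, and their counts may include reads of these neighbors.

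Psmc1 encodes an ATPase of the 19S base (Rpt2). It was at 258, 252 and 251 CPM with WT, 393, 364 and 372 CPM with BimS and 410.3, 411 and 458 CPM with RIPK3 medium. All 6 debris samples lay above all WT samples, at log2 fold changes of 0.57 ± 0.05 and 0.75 ± 0.05 (edgeR adjusted p = 2.58e-11 and 1.73e-14). Psma5, an α subunit, was at 61.1, 62.5 and 65.7 CPM with WT, 95.5, 84.7 and 88.6 CPM with BimS and 101, 101 and 108 CPM with RIPK3 medium. The 3 groups did not overlap, and Psma5 rose with RIPK3 medium by 0.71 ± 0.06 on the log2 scale (edgeR adjusted p = 2.27e-12). Psmd1, the large scaffold of the base (Rpn2), was at 186, 185 and 195 CPM with WT, 285, 275 and 279 CPM with BimS and 278, 267 and 269.8 CPM with RIPK3 medium. Here the 2 kinds of debris overlapped, and the rise with BimS medium was 0.57 ± 0.05 (edgeR adjusted p = 6.72e-12).

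Of the catalytic subunits, Psmb5, which carries the chymotrypsin-like site, was at 16.9, 14.9 and 15.4 CPM with WT, 19.1, 18.2 and 18.9 CPM with BimS and 18.0, 20.2 and 20.9 CPM with RIPK3 medium. Its log2 fold changes were 0.25 ± 0.09 (edgeR adjusted p = 0.0477) and 0.32 ± 0.09 (edgeR adjusted p = 0.00649), and the first passed the test by a small margin. DESeq2 gave an adjusted p of 0.0706, and without WT replicate 2 or 3, any BimS replicate or RIPK3 replicate 2 the edgeR adjusted p was 0.0574 to 0.190. Psmb6, with the caspase-like site, had log2 fold changes of 0.16 ± 0.06 and 0.16 ± 0.06 (edgeR adjusted p = 0.0749 and 0.0515), which both passed when the replicate number was a block (edgeR adjusted p = 0.00972 and 0.00615). Psmb7, with the trypsin-like site, had -0.00383 ± 0.06 and 0.05 ± 0.06. Psmb4 rose with BimS medium by 0.21 ± 0.06 (edgeR adjusted p = 0.00845), a call lost without WT replicate 2 (0.0608) or BimS replicate 1 (0.0771).

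Psmd14, the lid metalloprotease that cuts ubiquitin chains from substrates, was at 129, 126 and 126 CPM with WT, 161, 141 and 149.6 CPM with BimS and 151, 151 and 169 CPM with RIPK3 medium. It rose by 0.24 ± 0.05 and 0.31 ± 0.05 on the log2 scale (edgeR adjusted p = 0.00149 and 5.77e-05), calls not made on unscaled log2(count + 1) (limma adjusted p = 0.287 and 0.263). Psme4 encodes the large activator PA200, which caps the core in place of the 19S particle. Its level was 255, 263 and 252 CPM with WT, 306, 307 and 312 CPM with BimS and 332, 331 and 316 CPM with RIPK3 medium, and it rose by 0.27 ± 0.05 and 0.35 ± 0.05 (edgeR adjusted p = 4.09e-05 and 2.73e-07), with limma adjusted p = 0.177 and 0.123 on unscaled log2(count + 1). The PA28 genes did not follow. Psme1 was at 850.3, 824 and 879 CPM with WT, 857, 775 and 819 CPM with BimS and 823, 807 and 947 CPM with RIPK3 medium, with overlap of all groups and log2 fold changes of -0.06 ± 0.05 and 0.01 ± 0.05. Psme2 had -0.03 ± 0.06 and 0.01 ± 0.06.

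**Figure D3:**
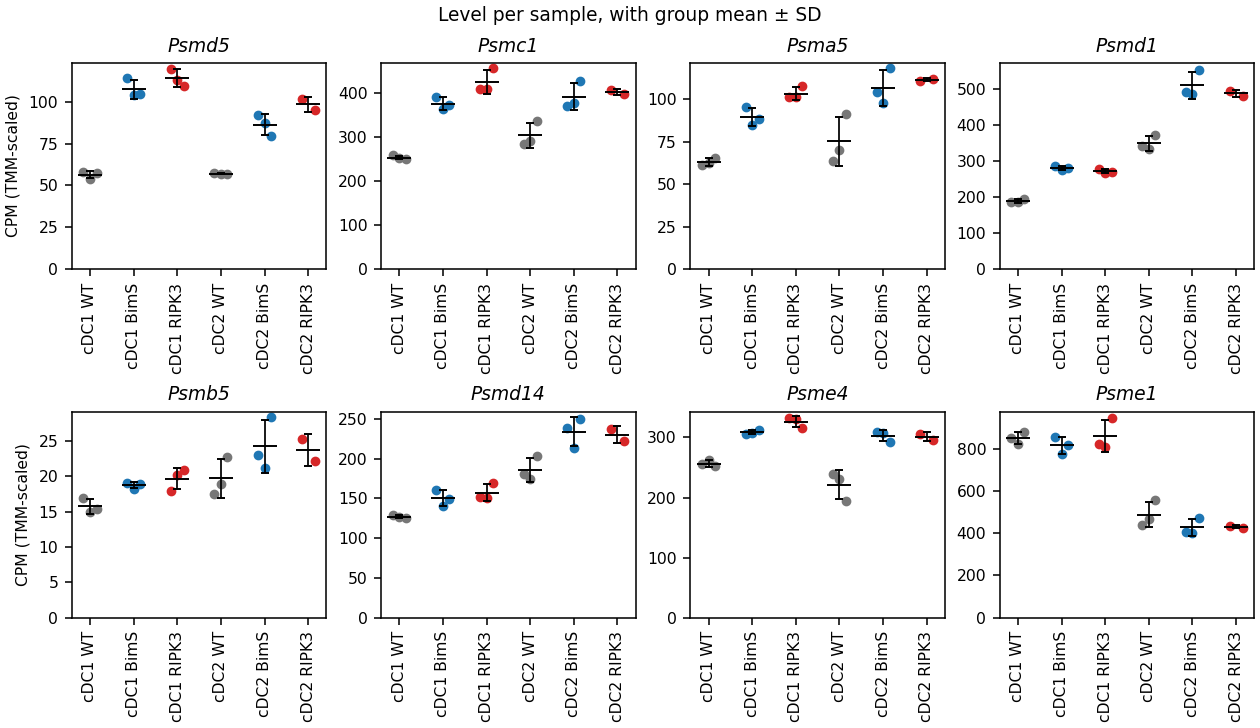
Level in CPM (y axis, from 0) of 8 genes in each sample of the 6 groups (x axis), with the group mean and SD in black. Psmd5, Psmc1, Psma5, Psmd1 and Psme4 lie higher in both debris groups of both cell types, and Psme1 lies higher in cDC1s than in cDC2s.

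Because many of the 41 genes rose in cDC1s, the promoters of all 41 were read from the GRCm39 genome, as the 250 bases before the start of the canonical transcript in GENCODE M39. The core of the antioxidant response element, TGACNNNGC on either strand, to which NRF1 (Nfe2l1) and NRF2 with small MAF proteins bind, was in 6 of 41 windows (14.6%), against 10.3% of the 17437 windows of all protein-coding genes. It was in 4 of the 26 genes that rose in cDC1s with RIPK3 medium (Psmb5, Psmc6, Psmd7 and Psmd12) and in 2 of the 15 that did not (Psmb6 and Psmd9). The CCAAT box, CCAAT on either strand, was in 18 of 41 windows (43.9%), against 35.6% of all. A match describes only these letters. The windows below are those of the 3 genes with the largest rise in cDC1s with RIPK3 medium and of Psmb5, a called catalytic subunit with a TGACNNNGC match. They lie at chr2:34760975-34761224 (minus strand, Psmd5), chr12:100076154-100076403 (plus, Psmc1), chr3:108163836-108164085 (plus, Psma5) and chr14:54855482-54855731 (minus, Psmb5). Capitals mark matches to either motif:
Psmd5: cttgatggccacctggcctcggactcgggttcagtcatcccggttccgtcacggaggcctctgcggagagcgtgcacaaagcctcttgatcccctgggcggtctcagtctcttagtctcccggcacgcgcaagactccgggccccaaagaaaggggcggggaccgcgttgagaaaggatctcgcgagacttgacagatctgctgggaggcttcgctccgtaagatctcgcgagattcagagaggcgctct
Psmc1: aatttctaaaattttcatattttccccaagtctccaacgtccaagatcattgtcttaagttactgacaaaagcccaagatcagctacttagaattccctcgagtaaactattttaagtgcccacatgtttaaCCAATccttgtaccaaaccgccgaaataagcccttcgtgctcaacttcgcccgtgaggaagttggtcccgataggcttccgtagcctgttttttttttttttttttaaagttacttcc
Psma5: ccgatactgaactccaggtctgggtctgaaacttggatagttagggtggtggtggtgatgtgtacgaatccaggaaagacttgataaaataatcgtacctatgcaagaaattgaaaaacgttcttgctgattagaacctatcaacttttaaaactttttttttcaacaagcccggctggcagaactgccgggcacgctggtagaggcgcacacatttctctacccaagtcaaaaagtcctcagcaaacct
Psmb5: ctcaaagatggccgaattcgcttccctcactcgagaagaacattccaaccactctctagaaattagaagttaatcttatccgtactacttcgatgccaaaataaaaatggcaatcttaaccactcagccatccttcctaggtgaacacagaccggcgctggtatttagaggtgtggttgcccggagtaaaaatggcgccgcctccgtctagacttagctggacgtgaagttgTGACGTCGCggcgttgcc
The windows of Psmd5 and Psma5, with 2 of the 3 largest rises, held neither motif, and that of Psmc1 held 1 CCAAT box. The match began at position -18 from the start in Psmb5.

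Next, apoptotic and necroptotic debris were compared directly in cDC1s. With RIPK3 medium, 3 of 41 genes were higher than with BimS medium, against 1.94% of all genes tested, and 0 were lower, against 2.21%. Of the more highly expressed genes, 4.19% were higher. At an unadjusted p below 0.05 there were 6 of 41, near the 15.5% of all genes. With the replicate block 3 of 41 passed, near the 8.87% of all genes called in either direction. Psma5 was higher by 0.21 ± 0.06 (edgeR adjusted p = 0.0244), Psmc1 by 0.18 ± 0.05 (edgeR adjusted p = 0.0271) and Psmd4, the ubiquitin receptor Rpn10, by 0.16 ± 0.05 (edgeR adjusted p = 0.0460). Psmd4 was at 403, 383 and 401 CPM with BimS and 424, 432 and 473 CPM with RIPK3 medium. These differences are small and rest on few samples. The count was 0 without BimS replicate 2 (3.29% of all genes), 0 without BimS replicate 3 (2.42%) and 1 without RIPK3 replicate 3 (4.47%). By limma on the deposited normalized values it was 0, against 3.72% of all genes. Of the 9 fits without 1 library, the call of Psmd4 was lost in 8, without any WT or BimS replicate or RIPK3 replicate 2 or 3 (edgeR adjusted p of 0.0510 to 0.178), that of Psmc1 in 3 and that of Psma5 in 2. Psmd5 did not pass, at 0.09 ± 0.05. The median log2 fold change of the 41 genes was 0.04, and -0.04 on unscaled log2(count + 1). The direction turned between replicate numbers, with 10, 29 and 37 of 41 genes higher with RIPK3 than with BimS medium in replicates 1, 2 and 3.

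In cDC2s, some proteasome genes also rose. With BimS medium, 9 of 41 were higher, against 3.80% of the 19239 genes tested, and 0 were lower, against 3.21%. With RIPK3 medium, 6 of 41 were higher, against 3.93%, and 0 were lower, against 3.28%. Among the 7779 more highly expressed genes, 7.47% and 7.53% were higher. The counts depended on the scaling here too. On the deposited normalized values limma called 4 and 4, near the 8.38% and 8.44% of all genes called in either direction. On unscaled log2(count + 1) it called 3 and 1, against 5.50% and 8.32%. The median log2 fold changes of 0.14 and 0.17 were close to those in cDC1s, with standard errors of 0.09 and 0.10 (medians over the genes) against 0.05 in cDC1s, and the RIPK3 median was -0.00 on unscaled log2(count + 1). Same-numbered samples deviated together, and with the replicate number as a block, 24 of 41 genes were higher with BimS medium, against 11.0% of all, and 3 were lower, against 10.3%. In that fit, 30 were higher with RIPK3 medium, against 10.0%, and 0 were lower, against 11.4%. Of the more highly expressed genes, the blocked fit called 23.1% and 20.6% higher. Without WT replicate 3, the unblocked counts were 17 and 17, and they included all 9 and all 6 genes, whereas the share of all genes called in either direction was 7.58% and 9.74%, against 7.01% and 7.21% with it. Without WT replicate 2 the BimS count was 3 (4.20% of all), and without either RIPK3 replicate the RIPK3 count was 2 (3.52% and 3.34%). Within replicate numbers, 34, 34 and 33 of 41 genes were higher with BimS and 38 and 35 with RIPK3 medium than with WT medium. The part of Thbs1, the gene of the tumor cell list that rose in the same samples, in these results was not tested.

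Psmd5 again had the largest rise. It was at 57.1, 57.1 and 57.0 CPM with WT, 92.1, 87.3 and 79.4 CPM with BimS and 102 and 95.3 CPM with RIPK3 medium. The groups did not overlap, and the rise was 0.59 ± 0.08 (edgeR adjusted p = 9.44e-05) and 0.78 ± 0.09 (edgeR adjusted p = 9.78e-06). Psmd5 did not share the higher level of WT replicate 3. Psmd1 was at 341, 333 and 372 CPM with WT, 492, 485 and 553 CPM with BimS and 494 and 480.3 CPM with RIPK3 medium. It rose by 0.55 ± 0.08 and 0.47 ± 0.09 (edgeR adjusted p = 0.000105 and 0.00113). Psma5 was at 63.7, 70.3 and 91.6 CPM with WT, 104, 97.8 and 118 CPM with BimS and 111 and 112 CPM with RIPK3 medium. It rose by 0.50 ± 0.11 and 0.56 ± 0.12 (edgeR adjusted p = 0.00734 and 0.00683), and WT replicate 3 lay closest to the debris samples. The calls for Psma5 were lost without WT replicate 2 (BimS medium, 0.0614) and without RIPK3 replicate 1 (0.0767) or 2 (0.0857).

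For Psme4, WT replicate 3 was the lowest sample, with 239.95, 230.3 and 194 CPM with WT, 309, 307 and 292 CPM with BimS and 307 and 296 CPM with RIPK3 medium. It rose by 0.45 ± 0.09 and 0.44 ± 0.10 (edgeR adjusted p = 0.00189 and 0.00579). Psmc1 rose with RIPK3 medium by 0.40 ± 0.09 (edgeR adjusted p = 0.00920), and Psmd11, the only called lid subunit there, by 0.31 ± 0.08 (edgeR adjusted p = 0.0288). The RIPK3 calls of Psmc1 and Psmd11 were lost without either RIPK3 replicate or WT replicate 2 (0.0677 to 0.342), and that of Psme4 without either RIPK3 replicate (0.0996 and 0.0756). Psmd14 was at 180.2, 174 and 203 CPM with WT, 239, 213 and 249.8 CPM with BimS and 238 and 223 CPM with RIPK3 medium. It rose with BimS medium by 0.33 ± 0.08 (edgeR adjusted p = 0.0180), a call lost without WT replicate 2 (0.138), BimS replicate 1 (0.0816) or BimS replicate 3 (0.0873), and with RIPK3 medium the difference was 0.30 ± 0.09 (edgeR adjusted p = 0.0578), which passed with the block (adjusted p = 5.25e-11).

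None of the 3 catalytic subunits passed in cDC2s. Psmb5 was at 17.4, 18.9 and 22.8 CPM with WT, 23.0, 21.2 and 28.4 CPM with BimS and 25.3 and 22.1 CPM with RIPK3 medium, with overlap through WT replicate 3. Its log2 fold changes were 0.29 ± 0.12 and 0.26 ± 0.14 (edgeR adjusted p = 0.192 and 0.339), and with the block 0.30 and 0.38 (adjusted p = 0.00127 and 0.000456). With the block, Psmb7 also passed in both comparisons (0.15 and 0.22, edgeR adjusted p = 0.00977 and 0.00089) and Psmb6 with RIPK3 medium (0.24, edgeR adjusted p = 0.000107). The 3 genes that were lower with BimS medium in the blocked fit were PA28 genes. Psme1 was at 441, 466 and 556 CPM with WT, 406, 403 and 472 CPM with BimS and 435 and 425 CPM with RIPK3 medium, with log2 fold changes of -0.19 ± 0.09 and -0.19 ± 0.10 without the block. With it, the BimS values were -0.19 for Psme1 (edgeR adjusted p = 2.22e-05) and -0.15 for Psme2 (edgeR adjusted p = 0.0138). The third was Psme2b, a near copy of Psme2 at 2.07–3.44 CPM whose exons overlap a gene on the same strand, so that its counts are uncertain.

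**Figure D4:**
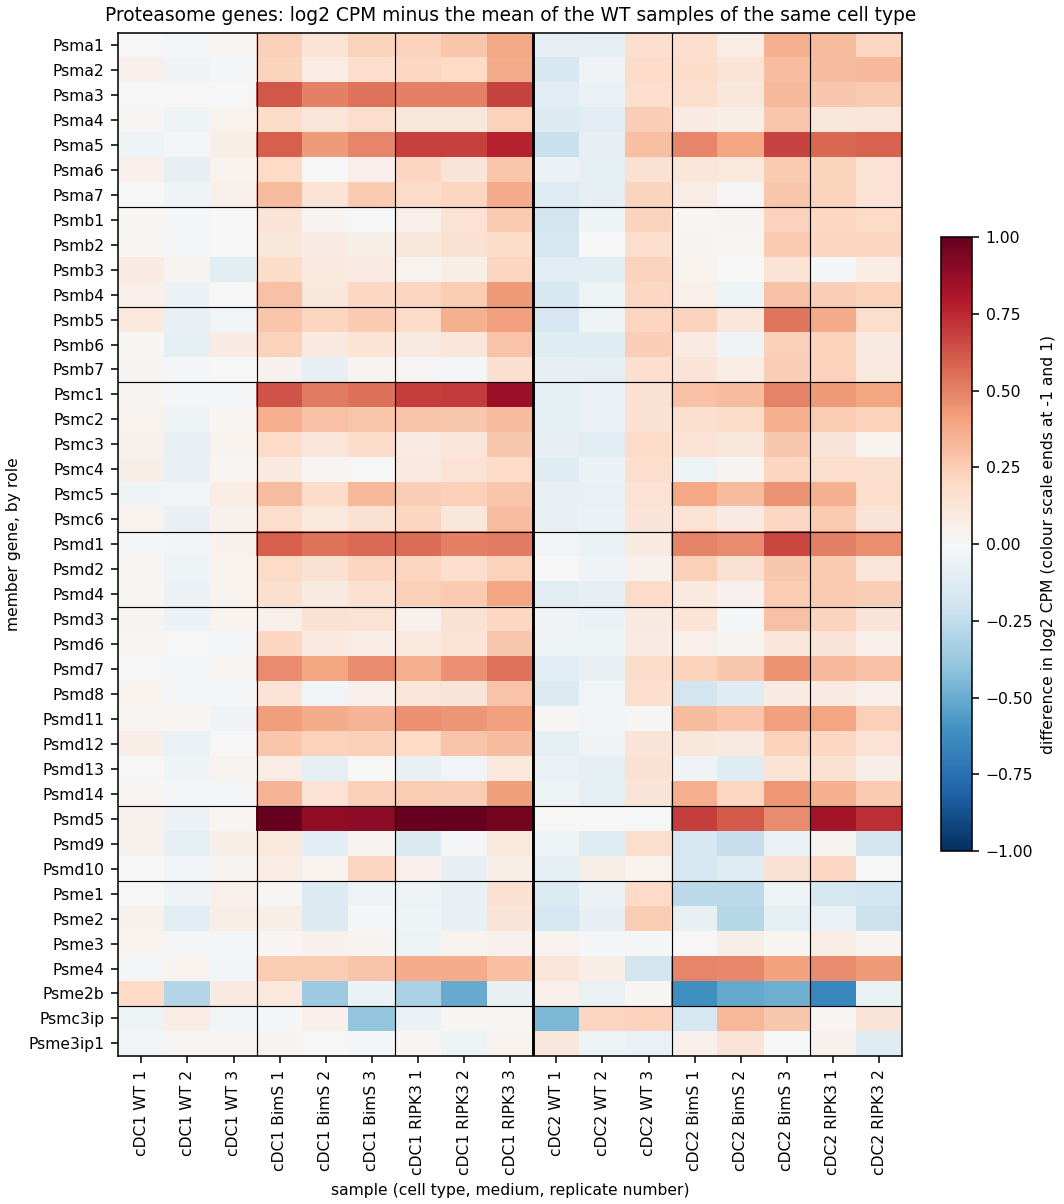
Log2 CPM of the 41 genes (rows, by role) in the 17 samples (columns), minus the mean of the WT samples of the same cell type; red is higher and blue lower. Psmd5, Psmc1, Psma5, Psmd1 and Psmd7 are red in all debris samples of both cell types, and the column of cDC2 WT replicate 3 is red for 37 of 41 genes.

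RIPK3 and BimS medium did not differ for any of the 41 genes in cDC2s by edgeR (0 genes, against 0.379% of all genes called), with 0 at an unadjusted p below 0.05, against 8.59% of all. DESeq2 also called 0, against 1.28%, and limma 0 in each of 3 fits, against 0.312% to 0.769%. With the replicate block, 11 genes were higher with RIPK3 medium, against 5.92% of all and 12.8% of the more highly expressed genes. The log2 fold changes were 0.17 for Psma5 and 0.19 for Psmd4. Psmb6 was also among the 11 (0.15, edgeR adjusted p = 0.0422). The samples of cDC2s with RIPK3 medium include no replicate 3, so that fit rests on 2 numbers.

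Whether the response differed between cDC1s and cDC2s was tested directly, as the interaction of cell type and medium. No proteasome gene passed for BimS medium (0 of 41, against 0.870% of all genes) or for RIPK3 medium (0 of 41, against 1.14%) by edgeR, and none did by DESeq2 or limma. The zeros depend on the fit: with the replicate block 2 of 41 genes (Psma3 and Psmd5) were higher for BimS medium, against 1.37% of all, and 1 (Psmc1) for RIPK3 medium, against 1.32%. Of the more highly expressed genes, the blocked fit called 2.96% and 2.82% higher, and the count of 1 is near this share. Without a filter on low counts 1 and 1 passed, against 1.01% and 1.19%. At an unadjusted p below 0.05 there were 3 and 3 genes, a share below that of all genes tested (8.51% and 8.57%), and they were named after their values were seen. They were the same 3 genes, Psma3, Psmc1 and Psmd5, each with a larger fitted rise in cDC1s. For Psmd5 the difference was 0.34 ± 0.10 (edgeR adjusted p = 0.110) with BimS and 0.23 ± 0.10 (edgeR adjusted p = 0.485) with RIPK3 medium. For Psma3 it was 0.35 ± 0.10 (edgeR adjusted p = 0.127) and 0.30 ± 0.11 (edgeR adjusted p = 0.305), and for Psmc1 0.20 ± 0.10 (edgeR adjusted p = 0.586) and 0.34 ± 0.10 (edgeR adjusted p = 0.136).

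The cell types were compared across all media. In this fit, 31 of 41 genes were lower in cDC1s than in cDC2s, against 29.4% of all 19082 genes tested, and 4 were higher, against 30.4%. Among the 7967 more highly expressed genes, 43.9% were lower and 36.8% higher. The median log2 fold change was -0.34, whereas that of all genes was 0.03. On unscaled log2(count + 1), 21 genes were lower and 7 higher, against 58.5% of all genes called in either direction. All 8 lid subunits and all 3 base subunits other than the ATPases were lower in cDC1s, as were 6 of 7 α subunits, 5 of 6 ATPases, 3 of 4 non-catalytic and 3 of 3 catalytic β subunits. Of the genes lower in cDC1s, Psmd1 had the largest difference, with cDC1 samples at 185–285 and cDC2 samples at 333–553 CPM, or -0.87 ± 0.04 on the log2 scale (edgeR adjusted p = 4.08e-19). The ATPase gene Psmc2 (Rpt1) followed at -0.84 ± 0.04 (edgeR adjusted p = 1.01e-17), with 115–153 CPM against 204–281 CPM, and the α subunit gene Psma6 at -0.65 ± 0.04 (edgeR adjusted p = 6.45e-14). For these genes the cell types did not overlap. Psmd14 differed by -0.58 ± 0.04, and Psme3ip1, the only called gene of another function, by -0.22 ± 0.04, which was -0.02 on unscaled log2(count + 1) (limma adjusted p = 0.793).

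The activators stood apart from the subunits: 3 of 5 were higher in cDC1s and none was lower. Psme1 ranged over 775–947 CPM in the cDC1 samples and 403–556 in the cDC2 samples, or 0.91 ± 0.05 (edgeR adjusted p = 1.88e-16). Psme2 ranged over 121–145 and 77.4–112 CPM, or 0.57 ± 0.05 (edgeR adjusted p = 1.81e-10), also with no overlap. Psme4 was higher by 0.12 and Psmd5 by 0.17 ± 0.05 (edgeR adjusted p = 0.00268), with overlapping samples for Psmd5, whose WT levels were 54.1–57.9 CPM (cDC1s) and 57.0–57.1 CPM (cDC2s).

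**Figure D5:**
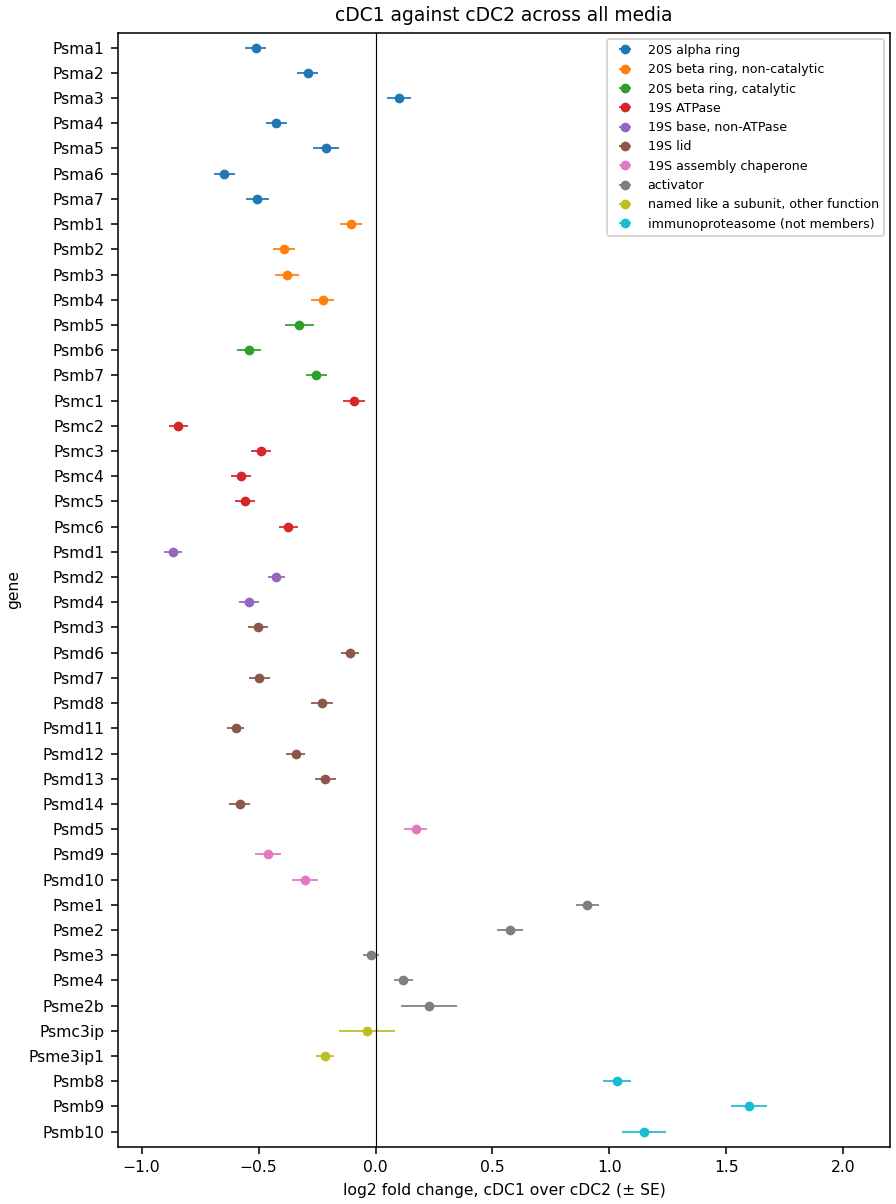
Log2 fold change of cDC1s over cDC2s across all media, with its standard error (x axis), for the 41 genes and the 3 immunoproteasome genes (y axis), colored by role. Most subunits lie below 0, down to -0.87 for Psmd1, whereas Psme1, Psme2 and the immunoproteasome genes lie between 0.57 and 1.60.

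The catalytic subunits and their inducible counterparts differed between cell types in opposite directions. Psmb5, Psmb6 and Psmb7 differed by -0.33 ± 0.06, -0.54 ± 0.05 and -0.25 ± 0.04 on the log2 scale, and Psmb8, Psmb9 and Psmb10 were higher by 1.03 ± 0.06, 1.60 ± 0.08 and 1.15 ± 0.09. On unscaled log2(count + 1), Psmb5 and Psmb7 no longer passed, at -0.13 and -0.06 (limma adjusted p = 0.143 and 0.416), whereas Psmb6 did. Per kilobase of the canonical transcript, the CPM of Psmb8 were 19.5–20.6 times those of Psmb5 in cDC1s with WT medium, 15.9–16.9 times with BimS and 15.1–17.0 times with RIPK3 medium. In cDC2s the ratios were 9.24–9.62, 5.07–6.13 and 5.43–6.15, so that in both cell types the WT samples did not overlap with the debris samples. For Psmb9 over Psmb6 the ratio was also lower with debris, from 0.867–0.947 with WT to 0.645–0.753 with BimS medium in cDC1s and from 0.228–0.243 to 0.145–0.166 in cDC2s. Psmb10 over Psmb7 was higher with BimS medium in cDC1s, at 0.313–0.340 against 0.257–0.284 with WT, overlapped WT with RIPK3 medium (0.281–0.293), and was lower in cDC2s, at 0.122–0.145 with WT, 0.0915–0.119 with BimS and 0.0879–0.102 with RIPK3 medium. Psmb8 and Psmb9 fell in cDC2s with BimS (by 0.44 and 0.55 on the log2 scale) and RIPK3 medium (by 0.45 and 0.67), and Psmb9 fell in cDC1s with RIPK3 medium by 0.30, whereas Psmb10 rose in cDC1s with BimS medium by 0.25. Of these, the RIPK3 calls of Psmb8 in cDC2s were lost without either RIPK3 replicate and that of Psmb9 there without RIPK3 replicate 2 (0.0708 to 0.0991), that of Psmb9 in cDC1s without WT replicate 1 or 3 or any RIPK3 replicate (0.0547 to 0.0978), and that of Psmb10 without WT replicate 2, BimS replicate 1 or BimS replicate 3 (0.0861 to 0.137). With the replicate block Psmb9 also passed in cDC1s with BimS medium (-0.19, edgeR adjusted p = 0.000938) and Psmb10 in cDC2s with BimS medium (-0.28, edgeR adjusted p = 0.0100).

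The wider pathway was described by 5 lists, whose counts are given for BimS and RIPK3 medium in cDC1s and then in cDC2s. Of all genes tested, 7.31%, 8.34%, 3.80% and 3.93% were higher in these comparisons and 5.89%, 8.19%, 3.21% and 3.28% lower. Of 11 proteasome-bound factors in the table, 7 and 7 rose in cDC1s with BimS and RIPK3 medium and 3 and 5 rose in cDC2s, and 1, 1, 1 and 0 fell. Zfand5, which stimulates the 26S particle, had the largest rise in all 4 comparisons: 0.75, 0.97, 0.60 and 0.77 on the log2 scale. The others named by size were Zfand2a (0.72) and Akirin2 (0.61), the nuclear import factor of proteasomes, in cDC1s, and Ecpas (0.50) and Akirin2 (0.47, lost without RIPK3 replicate 1 at an adjusted p of 0.0998) in cDC2s. Of 10 regulators of proteasome genes, 6, 6, 5 and 3 rose and 2, 1, 0 and 0 fell. Mafg, a small MAF partner of NRF1 and NRF2, had the largest rise. Its cDC1 samples ranged over 160–173 CPM with WT and over 373–429 with debris, and its cDC2 samples over 219–233 and 431–469 CPM, with log2 fold changes of 1.20 and 1.30 in cDC1s and 0.97 and 1.03 in cDC2s. Bach1, a repressor at the same element, rose by 0.70 and 0.62 in cDC1s and 0.47 in cDC2s with BimS medium (lost without BimS replicate 2, 0.0787), and in cDC2s with RIPK3 medium the other named gene was Maff (0.74).

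The mRNA of Nfe2l1, whose protein NRF1 drives proteasome genes when degradation is impaired, did not rise, and NRF1 activity was not tested. In cDC1s it was at 295, 265 and 282 CPM with WT, 256, 248 and 251 CPM with BimS and 281, 271 and 256 CPM with RIPK3 medium. It fell by 0.16 ± 0.05 with BimS medium (edgeR adjusted p = 0.0265), a call lost without WT replicate 1 (adjusted p = 0.220), WT replicate 3 (0.0899), BimS replicate 2 (0.0791) or BimS replicate 3 (0.0851). With RIPK3 medium its difference was -0.06 ± 0.05. In cDC2s the values were -0.15 ± 0.08 and 0.08 ± 0.09, and with the block it passed with BimS medium (-0.14, edgeR adjusted p = 0.00305) and for RIPK3 over BimS medium (0.19, edgeR adjusted p = 0.000952). Between cDC1s and cDC2s it differed by -0.54 ± 0.04.

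Of 11 ubiquitin genes and shuttle factors, 3, 4, 1 and 3 rose and 0, 1, 0 and 0 fell, so that the counts of 1 are near the shares of all genes given above. Sqstm1 (p62), a ubiquitin-binding autophagy receptor, had the largest rise in each, at 0.78, 0.76, 0.52 and 0.56. Uba1, the main ubiquitin-activating enzyme, rose by 0.18 in cDC1s with BimS medium, Rad23b by 0.29 in cDC1s with RIPK3 medium and Ubb, which encodes polyubiquitin, by 0.43 in cDC2s with RIPK3 medium, a call lost without WT replicate 2 or either RIPK3 replicate (0.0757 to 0.217). Of the 5 assembly chaperones of the 20S core none rose, and Psmg1 fell by 0.50 ± 0.17 in cDC1s with RIPK3 medium (edgeR adjusted p = 0.0380), a call that DESeq2 did not make (adjusted p = 0.0720) and that was lost without WT replicate 3 or any RIPK3 replicate (0.0521 to 0.255). The 3 immunoproteasome genes are given above.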

How the data were processed

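Polyadenylated RNA of 17 samples was sequenced. The authors trimmed reads with SeqPurge, aligned them with STAR 2.7.10a to GRCm39 (Ensembl genes) and counted them with gensum; strand use in counting is not given in the sources used here, so reads of overlapping opposite-strand genes cannot be told apart. The deposited raw table holds counts per gene, without normalization, and the deposited normalized table holds log2 values of counts scaled by the total of each sample. Of 31239 lines, 148 without a gene ID (0.0258% to 0.0366% of counts) were left out, and 30854 of 31091 IDs matched GENCODE M39 symbols. Counts were tested with edgeR 4.0.16 in R 4.3.3 (quasi-likelihood, robust, TMM) after dropping genes that were at 0 in more than 50% of a fit's samples, with Benjamini-Hochberg adjustment over all genes and a threshold of 0.05. The media were compared within each cell type, cDC1s and cDC2s over all samples with medium as covariate, and interactions over 6 groups. CPM are TMM-scaled. TMM factors were 1.04 in all WT samples and 0.961 to 0.997 in debris samples. Scripts were tested on simulated data.

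The members, roles and lists were chosen with earlier results of these data known. For each comparison, values are given for up to 3 called genes with the largest rise and fall, single calls of a role, the catalytic, PA28 and immunoproteasome genes, Psmd14 and Nfe2l1, and up to 2 called genes of each list against WT. Within a cell type, same-numbered samples of different media deviated together from their group means (16 of 16 pairs with a correlation over 0.1, median 0.36, against 4 of 32 pairs with different numbers), so the numbers were taken to pair samples there. Across cell types 19 of 24 did. Alternatives were DESeq2 1.42.0, RLE factors, other filters, limma 3.58.1 on log2(count + 1), on log2 CPM and on the deposited values, the replicate block, and leaving out each library.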

Additional observations from a re-analysis of the deposited data

Results flagged for a closer look

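No group held the 4 samples needed to look for outlying samples. Of the genes in the lists of the wider pathway, 1 passed edgeR's interaction test for BimS medium (Mafk) and 1 for RIPK3 medium (Psmb8). Of all genes, 0.870% and 1.14% passed. In the same fit, without the replicate block, no proteasome gene of the 41 did (with the block 2 passed for BimS and 1 for RIPK3 medium). Psmb8 differed with RIPK3 medium by 0.45 ± 0.11 on the log2 scale (adjusted p = 0.0396), with 330.2, 307 and 318 CPM with WT and 306, 305 and 346 CPM with RIPK3 medium in cDC1s and 168, 181 and 210.5 CPM against 138 and 136 CPM in cDC2s. Its adjusted p was 0.208 on log2(count + 1), and was above 0.05 in 11 of 17 fits that left out 1 library. Mafk, a small MAF gene named after its value was seen, differed with BimS medium by 0.67 ± 0.11 (adjusted p = 0.000532), with 57.8–63.0 CPM with WT and 77.2–80.7 CPM with BimS medium in cDC1s and 40.0–41.4 and 29.0–36.6 CPM in cDC2s.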

How the results depend on the processing

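The direction of the calls against WT did not turn under any alternative run. In cDC1s, limma on log2(count + 1), which has no scaling for depth, called 7 genes with BimS, 7 with RIPK3 and 0 for RIPK3 over BimS medium, and on the deposited values 13, 17 and 0. In cDC2s, log2(count + 1) gave 3 and 1, against 5.50% and 8.32% of all genes, and the deposited values 4 and 4, against 8.38% and 8.44%. The count of 1 is below the share of all genes, and the counts of 3 and 4 are near it. On log2(count + 1), the median of the more highly expressed genes shifted to -0.12 (RIPK3 medium, cDC1s), -0.18 (RIPK3 medium, cDC2s), -0.12 (RIPK3 over BimS medium, cDC2s) and 0.15 (cDC1s over cDC2s). The cause of these changes was not tested.

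With the replicate block, the cDC2 counts were 27 with BimS medium, 30 with RIPK3 medium and 11 between them, against 21.3%, 21.4% and 14.3% of all genes. The interactions gave 2 and 1 genes, against 2.32% and 2.35%. The block gave 24, 30 and 3 calls in cDC1s, against 17.9%, 21.0% and 8.87% of all genes, so that the count of 3 is near that share. It gave 37 between cell types, against 60.7%, and changed the calls of the named genes given beside them. Without a filter on low counts the interactions gave 1 and 1. Leaving out 1 library, with at least 2 samples left in each group, gave 15 to 23 (BimS) and 20 to 29 (RIPK3) calls in cDC1s and 0 to 3 between them. The shares of all genes were 9.86% to 15.6%, 12.6% to 16.4% and 2.42% to 5.09%. In cDC2s there were 3 to 17 and 4 to 17, against 4.20% to 8.09% and 4.91% to 9.74%, and 0 to 0 between them, against 0.123% to 1.15%. Between cell types there were 35 to 37, against 57.7% to 58.8%. The interactions gave 0 to 1 (1 without cDC2 WT replicate 1), against 0.479% to 1.20%, and 0 to 0, against 0.778% to 1.33%. Where the cDC2 RIPK3 group was left with 1 sample, that sample was assumed to vary like the others. With 2 or 3 samples a group, changes under about 0.1 on the log2 scale were within the standard errors in cDC2s.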
